A study of Mus musculus with 16 samples.

Results

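Dendritic cells of rejecting mouse kidney allografts were selected from droplet single-cell RNA-seq of all CD45+ cells, the leukocytes of the graft, at 1 week after transplantation. A unique molecular identifier (UMI) tags each mRNA molecule that is captured, so that UMIs count molecules. A cell was taken as a dendritic cell if it held UMIs of at least 2 of 8 genes (Flt3, Zbtb46, Xcr1, Clec9a, Cd209a, Ccr7, Fscn1, and Ccl22) and at least 1 UMI of H2-Aa or Cd74, which encode parts of the MHC class II pathway. It also had to hold fewer than 3 UMIs of the complement genes C1qa, C1qb, and C1qc in sum, which mark macrophages, and no UMI of Cd3e, Cd3d, Cd3g, or Cd79a, which mark T and B cells. Of 11948 CD45+ cells, 95 met these criteria (0.795%, exact 95% interval 0.644% to 0.971%). They were 18 of 5377 cells (0.335%) in library 1 and 77 of 6571 cells (1.17%) in library 2. Of all 136 cells with at least 2 of the 8 genes, 2 had neither class II gene, 21 were left out for C1q, and 18 for CD3. The 8 genes, the class II genes, and the absence of C1q, CD3, and Cd79a were therefore fixed by the selection.

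The rejecting grafts were kidneys of B6 mice placed in DBA/2J recipients, taken 1 week later. The strain field of the labels gives C57BL/6J for all samples. The reference was naive spleen CD45+ cells in 5 libraries, to which the same criteria were applied. Mice were male, viable CD45+ cells were sorted by flow cytometry, and kidneys were perfused and digested with collagenase while spleens were only ground and freed of red cells. The study describes each mouse as a sample of its own, but the labels do not tie the 2 kidney libraries to mice, so p-values measure only the spread between libraries, which may be technical. Tissue, transplantation and rejection, strain, digestion, and library differ together between the kidney and spleen cells and cannot be told apart. The dendritic cells of the kidney may come from donor or recipient, and the 2 sources were not separated. Accepted kidney allografts were not analysed here.

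Dendritic cells take up antigen, carry it on MHC molecules, and present it to T cells, and in transplantation they are the classical starters of the response against the graft. Conventional type 1 dendritic cells (cDC1) carry the chemokine receptor XCR1 and the dead-cell receptor CLEC9A, depend on the transcription factors IRF8 and BATF3, and are known for cross-presentation, in which outside antigen is loaded on MHC class I for CD8+ T cells. Type 2 cells (cDC2), many with CD209a, mainly address CD4+ T cells, and mature cells of either type gain the lymph node homing receptor CCR7 and the actin-bundling protein fascin (Fscn1).

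The cells were sparse and shallow, and the criteria worked near the limit of detection. A dendritic cell held a median of 3159 UMIs (range 1250 to 9922), against 2273 in the other kidney CD45+ cells. Of the 95 cells, 51 had exactly 2 of the 8 genes, 28 had 3, 11 had 4, and 5 had 5, while 367 cells just outside had 1 gene and met the other criteria. The C1q sum was 0 in 88 cells, 1 in 5, and 2 in 2, and 1 cell with a sum of 3 was left out. H2-Aa and Cd74 were found in all 95 cells. Zbtb46, a transcription factor of conventional dendritic cells, was found in 61 cells, Flt3, the receptor for their growth factor, in 59, Clec9a in 58, and Xcr1 in 50. Fscn1 was found in 11 cells, Ccr7 and Ccl22 in 6 each, and Cd209a in 4. In the 3943 kidney cells with a CD3 UMI, whose median depth was 2372 UMIs, Flt3 was found in 0.507%, Xcr1 in 0.735%, and Zbtb46 in 1.67%. Clec9a was found in 1.80% of these cells and in 9.90% of kidney cells with at least 3 C1q UMIs (median 2956 UMIs), against 3.70% of the C1q cells of the spleen, and its level in all other CD45+ cells was 11.9 times as high in kidney as in spleen. When every cell was thinned to 1000 UMIs, 33 cells met the criteria, of which 29 were among the 95. The 2 kidney libraries shared 13 cell barcodes, and 1 dendritic cell barcode was among them.

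T cell and macrophage markers were low in the dendritic cells, whereas plasmacytoid markers were not. Kidney epithelial markers were low there and in the other CD45+ cells alike. Of 9 T cell genes, Trac, Trbc2, Cd8a, Cd8b1, Lck, and Cd2 were at 0 UMIs, which allows up to 8.17 CPM each (UMIs scaled to equal library totals). Of 14 kidney tubule and podocyte genes 12 were at 0. Over all 21937 genes with a UMI in these kidneys 45.5% were at 0 UMIs in the dendritic cells. Against the other CD45+ cells 47.6% were lower in both libraries and 13.1% higher. Among genes of at least 10 CPM in the other cells 2.17% were at 0, 36.6% lower, and 26.7% higher. All 12 macrophage genes were below the other CD45+ cells in both libraries, with a summed level of 1357 and 1234 CPM against 8297 and 7113 CPM. Lyz2, an abundant myeloid lysozyme gene that T cells should lack, was found in 45 of 95 dendritic cells (47.4%) and in 43.0% of CD3 cells. The CD3 cells had no C1q limit, and C1qa was found in 15.2% of them against 4.21% of the dendritic cells. They are thus not a matched baseline, here and for the CD3 shares given below. Whether the dendritic cells expressed Lyz2 was not tested. Monocyte markers summed to 1857 and 1267 CPM against 1633 and 2727 CPM in the other cells, so they were higher in library 1 and lower in library 2, and B cell markers to 214 and 174 CPM against 145 and 94.5 CPM. Plasmacytoid markers summed to 1482 and 649 CPM against 458 and 372 CPM, with 8 of 10 higher in both libraries. Siglech, one of them, was found in 5 dendritic cells. No test was made between the dendritic cells and the other kidney cells, because their transcripts chose them.

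Most of the dendritic cells that met the criteria held Xcr1 or Clec9a. Both genes are among the 8 of the criteria, so this share depends on the selection. UMIs of Xcr1 or Clec9a were found in 75 of the 95 cells (78.9%, exact 95% interval 69.4% to 86.6%), and 33 cells held both. The share was 72.2% in library 1 and 80.5% in library 2. Ccr7 or Fscn1 was found in 11 cells (11.6%, interval 5.92% to 19.8%), 1 of them in library 1 and 10 in library 2. Cd209a was found in 4 cells (4.21%, interval 1.16% to 10.4%), 2 in each library. Of the 11 cells with Ccr7 or Fscn1, 4 also held Xcr1 or Clec9a, whereas no cell held Cd209a together with Xcr1 or Clec9a. The remaining 9 cells held only Flt3, Zbtb46, or Ccl22 of the 8 genes.

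In naive spleen 207 of 47060 cells met the criteria (0.440%), at a median of 6068 UMIs. The share of dendritic cells among CD45+ cells was 0.753% ± 0.592 (SD, n = 2 libraries) in kidney and 0.447% ± 0.137 (SD, n = 5) in spleen, and of the kidney libraries 1 lay within the spleen range of 0.256% to 0.596% and 1 above it (exact permutation test, two-sided, p = 0.476). With 2 against 5 libraries this test cannot give a p below 0.0952. The share with Xcr1 or Clec9a was 76.4% ± 5.87 in kidney and 52.4% ± 12.1 in spleen, where the libraries ranged from 38.9% to 70.6%. The share with Cd209a was 6.85% ± 6.02 in kidney and 38.0% ± 10.1 in spleen, with a spleen range of 24.1% to 47.1%. For Ccr7 or Fscn1 the shares were 9.27% ± 5.25 in kidney and 35.5% ± 10.7 in spleen, with a spleen range of 23.5% to 48.1%. The libraries of the 2 tissues did not overlap in these 3 shares. The criteria used the same genes, so the shares are given as a description and no test of them is used. Whether Clec9a RNA from other cells, such as the C1q cells above, entered the first of them was not tested. Depth differed between the tissues, and with the criteria applied after thinning to 1000 UMIs the kidney minus spleen differences were 24.1, -14.7, and -20.6 percentage points, and the libraries then overlapped for Cd209a. A Siglech UMI was found in 63 of the 207 spleen cells and 5 of the 95 kidney cells, and without such cells the differences were 35.9, -19.2, and -34.2 percentage points, against 24.0, -31.2, and -26.3 with them.

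**Figure D1:**
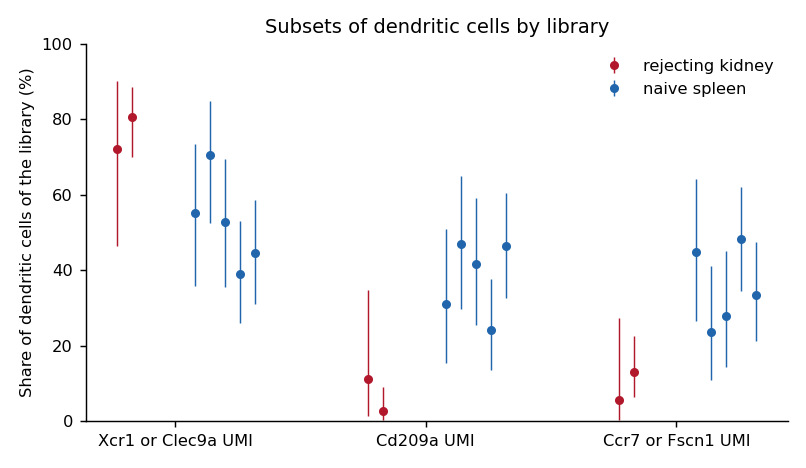
Share of dendritic cells (percent, y axis) with UMIs of Xcr1 or Clec9a, of Cd209a, and of Ccr7 or Fscn1, in each of the 2 rejecting kidney libraries (red) and the 5 naive spleen libraries (blue), with exact 95% intervals as bars. The kidney libraries sit at 72.2% and 80.5% for Xcr1 or Clec9a, above the spleen libraries, and lie below every spleen library for the other 2 sets.

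Against the other CD45+ cells of the same kidneys, the dendritic cells carried a set of transcripts known from cDC1. Of a list of 15 cDC1 genes that the criteria did not use, 13 were higher than in the other cells in both libraries and none was lower in both. Over all 21937 genes with a UMI in these kidneys 13.1% were higher and 47.6% lower in both. Among genes of at least 10 CPM in the other cells the shares were 26.7% and 36.6%. Wdfy4, needed for cross-presentation by cDC1, stood at 1607 CPM in library 1 and 1668 CPM in library 2, against 80.0 and 81.1 CPM in the other cells. Its ratio over both libraries was 20.6. Irf8 stood at 1607 and 1594 CPM against 458 and 471 CPM, Naaa, a lipid amidase, at 839 and 662 CPM against 131 and 160 CPM, and Ppt1, a lysosomal thioesterase, at 2535 and 2234 CPM against 918 and 965 CPM. Both libraries thus showed similar levels of these genes. Batf3 was at 143 and 170 CPM against 42.7 and 41.8 CPM.

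The genes with the highest ratios to the other kidney cells, among 1520 genes with at least 100 CPM in the dendritic cells of both libraries, were led by Sept3, a septin, at 286 and 206 CPM against 0.822 and 2.44 CPM (ratio 123, 95% counting interval 86.3 to 175). Ccser1 followed at a ratio of 109 and Cd24a, a small surface glycoprotein, at 44.1. Kit, the stem cell factor receptor, was at 143 and 299 CPM and Btla, an inhibitory receptor of the CD28 family, at 411 and 344 CPM, with ratios of 35.1 and 33.7 to the other cells. Itgae, the CD103 chain of tissue cDC1 and resident T cells, stood at 196 and 113 CPM against 12.9 and 6.13 CPM, and Tlr3, the sensor of double-stranded RNA, at 250 and 238 CPM (ratio 9.49). The other 8 of these 15 genes were Wdfy4, St3gal5, Zfp366, Clec1a, Kmo, Mctp1, Ctnnd2, and Hdac9. Zfp366 encodes the dendritic cell repressor DC-SCRIPT and Kmo an enzyme of the kynurenine pathway.

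**Figure D2:**
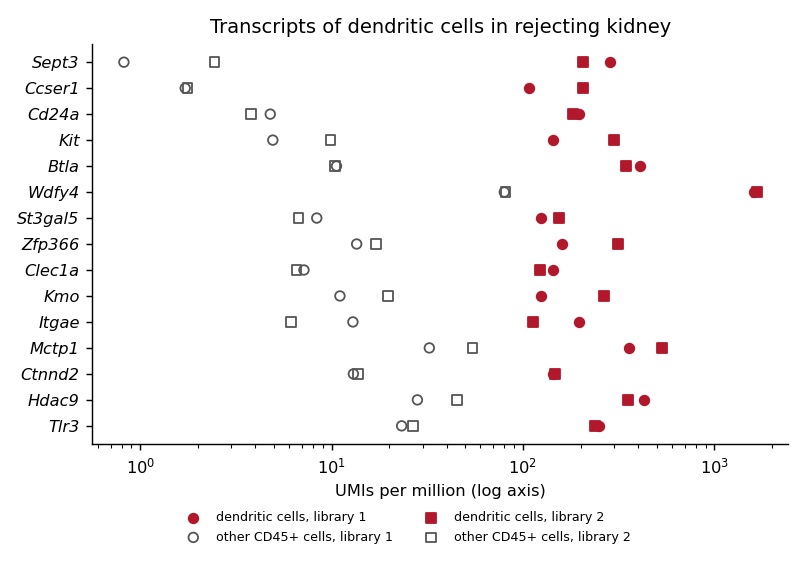
Levels (CPM, log axis) of the 15 genes with the highest ratio in dendritic cells (red) against the other CD45+ cells (open grey), in library 1 (circles) and library 2 (squares) of the rejecting kidney. Sept3 has the highest ratio, 123, Wdfy4 the highest level, 1607 and 1668 CPM, and in each gene both red points lie above both grey points.

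Most MHC class II genes were higher, and interferon-gamma, chemokine, and cytokine genes mostly lower, in the dendritic cells than in the other graft leukocytes. In sum the class II list was close to the other cells in library 1, at 12998 against 12931 CPM, above them in library 2, at 14389 against 10967 CPM, and below the C1q cells of both libraries, at 20952 and 19368 CPM. Of 11 measured MHC class II genes beyond the criteria, 8 were higher in both libraries and 2 lower. H2-Ab1, the class II beta chain, stood at 4714 and 5369 CPM against 3415 and 2721 CPM, while Ctss, the protease that frees class II from its invariant chain, was at 1857 and 2173 CPM against 4953 and 4379 CPM. All 15 genes of an interferon-gamma list were found, and 14 of them were lower in the dendritic cells than in the other cells in both libraries. Of 16 chemokine genes 14 were lower, and of 15 cytokine genes 12, with Il12a, Il23a, Il6, Il10, Il1a, and Csf1 at 0 UMIs. Over all 21937 genes with a UMI in these kidneys 47.6% were lower in both libraries and 13.1% higher, and 45.5% were at 0 UMIs in the 95 cells, so a gene at 0 may have gone undetected at this depth. Among genes of at least 10 CPM in the other cells 36.6% were lower, 26.7% higher, and 2.17% at 0 UMIs. None of the 16 chemokine genes, Cxcl9 among them, was higher than in the other cells in both libraries. Cxcl9, the interferon-gamma-induced ligand of CXCR3, was at 786 and 1897 CPM and was found in 67 of 95 dendritic cells. After thinning to 1000 UMIs it was found in 45.3% of dendritic cells (interval 35.0% to 55.8%), against 24.2% of CD3 cells and 79.9% of cells with at least 3 C1q UMIs. The dendritic cells held 1.16 and 2.31 Cxcl9 UMIs per Lyz2 UMI in the 2 libraries, the CD3 cells 0.666 and 0.660, and the C1q cells 0.896 and 1.46.

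Within the dendritic cells the split genes went together with further transcripts. The 71 cells with Xcr1 or Clec9a and no UMI of Ccr7 or Fscn1 carried Wdfy4 at 1929 CPM, Rab7b, a small GTPase of the endosome, at 316 CPM, and Tlr3 at 242 CPM. Tlr3 was found in 36 dendritic cells, and 35 of them held Xcr1 or Clec9a. Gcsam, Tspan33, and Scarb2 were among the 10 genes with the highest ratio to the remaining dendritic cells. The 11 cells with Ccr7 or Fscn1, of which library 1 had only 1, were led by Cacnb3, a calcium channel subunit known from migrating dendritic cells, which 6 of the 11 held (345 CPM, against 3.55 CPM in the Xcr1 or Clec9a cells). Relb, a subunit of the alternative NF-kB pathway, was at 365 CPM against 99.5 CPM, Traf1, a TNF receptor adaptor, at 711 against 245 CPM, and Il4i1, an amino acid oxidase of mature cells, at 183 against 14.2 CPM. Il12b, the p40 chain of IL-12 and IL-23, was found in 2 dendritic cells, both with Ccr7 or Fscn1. Ccl5, a chemokine for T cells, was found in 7 dendritic cells, of which 5 held Ccr7 or Fscn1. It had 56 UMIs in the dendritic cells, all in library 2, and 2 of them lay in the 71 Xcr1 or Clec9a cells. Ccl5 was found in 36.2% of CD3 cells, with 9775 UMIs in library 1 and 1956 in library 2. A T cell source of the 56 UMIs was not separated. The 4 Cd209a cells were too few to describe.

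Unsupervised clustering of all kidney CD45+ cells placed 82 of the 95 dendritic cells in 1 cluster of 323 cells, led by Sept3, Kit, Ffar2, Flt3, and Xcr1. This cluster made up 1.25% of library 1 and 3.90% of library 2. Of its 241 other cells, 119 held none of the 8 genes and 110 held 1, at a median of 2448 UMIs against 3347 in the 82. A further 6 dendritic cells fell in a cluster of 91 cells led by Siglech and Cox6a2, and the other 7 were spread over 4 clusters of other myeloid cells, with Lyz2, C1qa, Il1b, or Ace among their leading genes. When the cluster of 323 cells was divided again, 1 group of 33 cells, 28 of them dendritic cells by the criteria, was led by Trabd2b, Plpp1, and Ccser1 and held Xcr1 in 24 cells and Clec9a in 25. A group of 9 cells, 8 of them among the 95, was led by Il12b, Ccr7, and Sox5. A group of 34 cells with 13 of the 95 was led by Spc25 and histone genes and had Mki67 at 1325 CPM. The largest group, 90 cells with 13 of the 95, was led by Siglece, Pglyrp1, and Sos1. Xcr1 was found in 6 of its cells and Clec9a in 10. A group of 65 cells with 6 of the 95 was led by Klra2, Msr1, and C1qa, with C1qa at 321 CPM. The other 4 groups, of 20 to 26 cells, held between 1 and 6 of the 95 each, and one of them had Lck, Cd3e, and Nkg7 among its leading genes. The genes of the criteria were left out before clustering and came back only in the counts and among the leading genes. The groups are a description only.

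Many of the dendritic cells in the rejecting kidney carried cell cycle transcripts. After thinning to 1000 UMIs, 29 of 95 (30.5%, interval 21.5% to 40.8%) held UMIs of at least 2 of 16 cell cycle genes, 33.3% in library 1 and 29.9% in library 2. Among the Xcr1 or Clec9a cells they were 23 of 71 (32.4%) and among the Ccr7 or Fscn1 cells 3 of 11. In the same kidneys the share was 32.5% of CD3 cells, with 15.2% in library 1 and 52.3% in library 2, and 11.6% of C1q cells. In the spleen it was 12 of 204 dendritic cells with enough UMIs (5.88%), from 1.85% to 11.1% by library. The kidney mean of 31.6% was thus above that of the spleen, 6.17%, and the libraries did not overlap, but the exact permutation test could not pass 0.05 (two-sided p = 0.0952). Without thinning the shares over all cells were 45.3% in kidney and 30.4% in spleen, and the libraries overlapped (exact permutation test, two-sided p = 0.381). Free RNA of dividing cells may also enter such counts. Its part was not tested, and the share in library 1 rests on 6 of 18 dendritic cells (interval 13.3% to 59.0%).

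**Figure D3:**
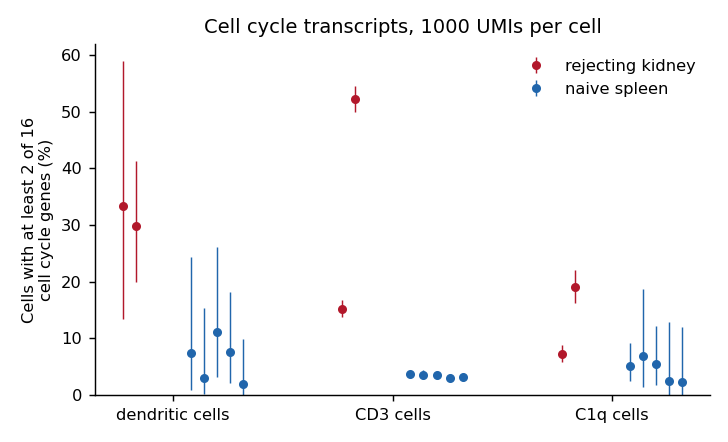
Share of cells (percent, y axis) with at least 2 of 16 cell cycle genes after thinning to 1000 UMIs, for dendritic cells, CD3 cells, and C1q cells in each rejecting kidney library (red) and naive spleen library (blue), with exact 95% intervals. The dendritic cells sit at 33.3% and 29.9% in kidney and from 1.85% to 11.1% in spleen.

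To ask how the dendritic cells of the rejecting kidney differ from those of a resting lymphoid organ, UMIs were summed over the dendritic cells of each library. The sums were compared in edgeR (quasi-likelihood test, p adjusted after Benjamini and Hochberg). Of 5270 genes tested over all dendritic cells, 1722 passed an adjusted p of 0.05 (32.7%), 1233 higher in kidney (23.4%) and 489 lower (9.28%). As the make-up of the 2 sets differed, the comparison was also made over the Xcr1 or Clec9a cells without Ccr7 or Fscn1, 13 and 58 cells in the kidney libraries and 89 in all in the spleen. Here 1131 of 3333 genes passed (33.9%), 786 higher (23.6%) and 345 lower (10.4%). Without regard to the test, the kidney and spleen libraries did not overlap in 43.5% of these genes, and 30.9% both passed and did not overlap, against 44.4% and 29.8% over all dendritic cells. With TMM scaling these became 512 higher and 494 lower, so the share of higher calls fell from 69.5% to 50.9%, and over all dendritic cells from 71.6% to 51.7%. The median gene was 0.31 higher in kidney on the log2 scale with plain totals and 0.00 with TMM, and the values below are to be read against that shift. The difference also followed intron length. Among genes of at least 100 CPM, sorted into 10 groups by the length of their introns, the median kidney minus spleen difference ran from -0.71 on the log2 scale in the group with the shortest introns to 1.29 in that with the longest (over 120858 bases), and from -0.64 to 1.16 over all dendritic cells. The adjustment for intron length removes these medians. Whether the shift came from how the 2 tables were counted was not tested. A Siglech UMI was found in 42 of the 89 spleen cells and 2 of the 71 kidney cells, so the comparison was repeated without such cells, which left 658 calls. In all, 163 of the 786 higher calls and 109 of the 345 lower ones also passed with TMM, with an adjustment for intron length, with DESeq2, and without Siglech cells. Where a call described next did not hold in these 4 settings, this is said.

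Genes induced by interferon-gamma, the main T cell and NK cell signal to antigen-presenting cells, had the highest median change of the lists. Of 9 tested in the Xcr1 or Clec9a cells, 8 were higher in kidney and none lower, against 23.6% and 10.4% over all genes tested, with a median log2 fold change of 4.14 against 0.31. Genes almost absent from the spleen cells, such as Gbp2, could enter the test only through the kidney libraries, where they were high. The count and the median depend on which genes entered and are a description. Gbp2, an interferon-induced guanylate-binding GTPase, stood at 305 and 365 CPM in the kidney libraries, whereas its spleen libraries ranged from 0 to 7.67 CPM with a median of 0, from 2 UMIs in all. Its log2 fold change was 6.45 ± 0.52 (SE, edgeR adjusted p = 8.62e-10). Iigp1, an immunity-related GTPase, was at 763 and 925 CPM in kidney against 0 to 99.7 CPM, median 27.4 CPM, in spleen (log2 fold change 4.14 ± 0.39, edgeR adjusted p = 1.23e-08). Irf1, the transcription factor of this response, was at 284 and 365 CPM against 35.4 to 68.4 CPM, median 66.8 CPM (log2 fold change 2.47 ± 0.32, edgeR adjusted p = 1.36e-06). For each of these 3 genes both kidney libraries lay above every spleen library, and the call held in all 4 other settings. Gbp3, Gbp5, Gbp7, and Igtp were also higher, by 4.44, 5.10, 5.04, and 3.69 on the log2 scale. Gbp7 did not pass with DESeq2 (adjusted p = 0.121), and Gbp3, Gbp5, and Igtp were too low to be tested without the Siglech cells. Ifi47 did not pass (edgeR adjusted p = 0.0806).

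In the other CD45+ cells both kidney libraries lay above all spleen libraries for all 15 genes of the list, as they did for 57.5% of the shared genes with at least 10 CPM there, and no test was made in these cells. Gbp2 stood there at 694 and 911 CPM in kidney and at a median of 22.2 CPM in spleen. Gbp2 was found in 28.4% of thinned dendritic cells (interval 19.6% to 38.6%) and in 17.0% of thinned CD3 cells, and Iigp1 in 50.5% and 20.4%. Free RNA could enter both, and its part was not tested beyond these shares. Ifngr1, the ligand-binding chain of the interferon-gamma receptor, went the other way, at 153 and 63.7 CPM in kidney against 219 to 376 CPM, median 284 CPM, in spleen (log2 fold change -1.81 ± 0.38, edgeR adjusted p = 0.000598). Its kidney libraries lay below all spleen libraries. Ifngr2, the signalling chain, was higher by 1.45 (edgeR adjusted p = 0.00438), but not with DESeq2 or without the Siglech cells (adjusted p = 0.228 and 0.0766). Of 2 tested genes of a type I interferon list, none passed in these cells with plain totals, and 1 passed as lower in kidney with TMM. Over all dendritic cells 9 of the list could be tested, and 4 were higher, Ifit2, Xaf1, and Isg15 among them (by 3.08, 2.14, and 1.29 on the log2 scale), and none lower, with a median log2 fold change of 0.95. Over all genes of that fit 23.4% were higher and the median was 0.28, and none of the 4 calls held in all 4 other settings.

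The promoters of the interferon-gamma list follow, since its genes gave the highest median change. Of the 15 genes of the interferon-gamma list and Cxcl9, 12 had a promoter matched to a RefSeq start site on GRCm38.p6, and the others are not in the counts. The 250 bases before the start were searched. The letters GAAA, 2 further bases, and GAAA again, the core that IRF proteins bind, stood on either strand in 9 of the 12 (75%) and in 3.04% of all 27025 promoters of this length. Of these 9 genes, Irgm1, Socs1, Tgtp1, and Tgtp2 were too low to be tested in these cells. TTC, 3 further bases, and GAA, the core of a STAT site, stood in 6 of the 12 (50%) and in 7.18% of all. Stretches of at most 30 bases follow, with the match in capitals, each read on the gene's strand.
Gbp2, chr3:142620594-142620623, plus strand: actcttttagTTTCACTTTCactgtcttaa
Gbp3, chr3:142559989-142560018, plus strand: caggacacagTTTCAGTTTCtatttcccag
Gbp5, chr3:142496759-142496788, plus strand: acttgtgtagTTTCAATTTCagtttagaga
Gbp7, chr3:142530273-142530302, plus strand: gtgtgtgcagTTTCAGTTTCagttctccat
Igtp, chr11:58199512-58199541, plus strand: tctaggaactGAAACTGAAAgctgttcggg
Irf1, chr11:53769914-53769942, plus strand, STAT core: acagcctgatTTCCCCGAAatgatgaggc
The 4 Gbp genes lie in 1 stretch of chromosome 3, with Gbp2b between Gbp3 and Gbp2, and their matches read TTTC first on the gene's strand, whereas the match of Igtp reads GAAA first. A match describes letters and not binding, and promoters without one were not searched further.

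Of the chemokine list 2 genes could be tested in the Xcr1 or Clec9a cells, and both were higher in kidney. Of 3 tested costimulatory and coinhibitory genes 2 were higher and none lower. Over all genes tested 23.6% were higher and 10.4% lower. Cxcl16 and Cd274, low in the spleen cells, could enter the test only through the kidney libraries, where they were high. The counts depend on which genes entered and are a description. Cxcl16, the ligand of CXCR6, stood at 327 and 408 CPM in the kidney Xcr1 or Clec9a cells and at 26.7 to 59.0 CPM, median 40.6 CPM, in the spleen (log2 fold change 3.23 ± 0.34, edgeR adjusted p = 6.33e-08). Cxcl9 was at 872 and 2089 CPM against 26.7 to 476 CPM, median 301 CPM (log2 fold change 2.62 ± 0.41, edgeR adjusted p = 2.31e-05), but did not pass with DESeq2 (adjusted p = 0.121). Both chemokines were above all spleen libraries in both kidney libraries, and no other chemokine was high enough to be tested. Cd86, a costimulator of CD28, was at 327 and 369 CPM against 34.2 to 138 CPM, median 94.7 CPM (log2 fold change 1.99 ± 0.33, edgeR adjusted p = 4.38e-05). Cd274, which encodes the inhibitory ligand PD-L1, was at 153 and 225 CPM against 0 to 23.6 CPM, median 7.67 CPM (log2 fold change 4.14 ± 0.51, edgeR adjusted p = 7.70e-07). Both held in all 4 other settings. After thinning, Cd86 was found in 29.5% of all kidney dendritic cells and 8.57% of CD3 cells, but Cd274 in 14.7% and 14.4%, a share close to that of CD3 cells. T cells can make PD-L1 too, and the dendritic cells held 0.237 and 0.282 Cd274 UMIs per Lyz2 UMI against 0.182 and 0.0955 in the CD3 cells. The CD3 cells had no C1q limit, and the part of free RNA in Cd274 was not tested. Cd83, a maturation marker, passed with plain totals (log2 fold change 1.75, edgeR adjusted p = 0.0211) but not with TMM (adjusted p = 0.0625) or the other 3 settings.

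The main MHC class II chains gave no call between the Xcr1 or Clec9a cells of the 2 tissues. H2-Ab1 stood at 4710 and 5824 CPM in kidney and 4520 to 5706 CPM, median 5068 CPM, in spleen, and its log2 fold change of 0.07 ± 0.16 did not pass (edgeR adjusted p = 0.787). H2-Eb1 was at 4186 and 3901 CPM against 3397 to 4387 CPM (edgeR adjusted p = 0.908). Without the Siglech cells H2-Eb1 passed as lower in kidney (log2 fold change -0.46, adjusted p = 0.0356). Of 10 class II pathway genes tested, 2 rose and 2 fell, against 23.6% higher and 10.4% lower over all genes tested. Ctss was at 1766 and 2144 CPM against 425 to 521 CPM, median 513 CPM (log2 fold change 2.01 ± 0.19, edgeR adjusted p = 1.57e-08), and H2-DMb2, a peptide-loading chain, was higher by 2.40. Those that fell were H2-Oa and H2-Ob, the chains of the loading inhibitor H2-O, by 1.27 and 1.22 (edgeR adjusted p = 0.0273 and 0.0362). H2-Ob did not pass with DESeq2 (adjusted p = 0.0738), nor H2-Oa after the intron adjustment (adjusted p = 0.104). Ctss was higher still in the other kidney CD45+ cells, as given above, and the part of free RNA in it was not tested. Of 3 macrophage markers tested in the same fit, Lyz2 was also called higher in kidney, though not with TMM.

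Of 14 tested genes of MHC class I and peptide loading 8 were higher in kidney and 1 lower, against 23.6% and 10.4% over all genes tested. Psme1, a proteasome activator subunit induced by interferon-gamma, stood at 1875 and 1791 CPM against 508 to 744 CPM, median 568 CPM, in spleen (log2 fold change 1.60 ± 0.20, edgeR adjusted p = 7.92e-07). Psmb8, an immunoproteasome subunit, was at 1526 and 1422 CPM against 621 to 792 CPM (log2 fold change 1.06 ± 0.20, edgeR adjusted p = 0.000156). These 2 held in all 4 other settings. Tap1, the peptide transporter, was higher by 1.13 (edgeR adjusted p = 0.00161) but not with DESeq2 (adjusted p = 0.166). H2-K1, a class I heavy chain, was the gene that was lower, at 480 and 908 CPM against 1122 to 1692 CPM (log2 fold change -0.95 ± 0.24, edgeR adjusted p = 0.00298), and without the Siglech cells it did not pass (adjusted p = 0.204). H2-K1 is highly polymorphic between B6 and DBA/2J, and the strain of the cells was not separated.

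Of the 15 cDC1 genes, all tested, 7 were higher and 1 lower in the kidney cells, against 23.6% and 10.4% over all genes tested, but only 3 of these calls held in all 4 other settings. Wdfy4 stood at 1919 and 1932 CPM against 318 to 555 CPM, median 447 CPM (log2 fold change 2.15 ± 0.21, edgeR adjusted p = 2.29e-08). It spans chr14:32959547-33185508 with 215410 bases of intron, and the adjustment for intron length left a log2 fold change of 0.88 (adjusted p = 0.00364). Its level in the other CD45+ cells was 1.00 times as high in kidney as in spleen, but these cells differ in make-up between the tissues. The B cell gene Cd79a stood there at 5.49 CPM in kidney and at a median of 1324 CPM in spleen. Ppt1 was at 2987 and 2492 CPM against 778 to 1121 CPM (log2 fold change 1.47 ± 0.19, edgeR adjusted p = 1.15e-06). Btla was at 502 and 357 CPM against 108 to 189 CPM, median 146 CPM (log2 fold change 1.46 ± 0.28, edgeR adjusted p = 0.000227), while in the other CD45+ cells it was lower in kidney. Itgae and Tlr3 were higher by 2.00 and 1.52 (edgeR adjusted p = 0.0126 and 0.00369), and Irf8 was lower by 0.66 (edgeR adjusted p = 0.0072), but without the Siglech cells none of the 3 passed (adjusted p = 0.0888, 0.0876, and 0.132). Batf3 did not pass (174 and 187 CPM against 69.0 to 185 CPM, edgeR adjusted p = 0.348).

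Cd8a was found in the spleen cells and not in the kidney cells. It encodes the CD8 alpha chain, which marks the cDC1 of mouse lymphoid organs, while cDC1 of other tissues lack it and often carry Itgae. No UMI of Cd8a was found in the kidney cells, in 281426 UMIs of the Xcr1 or Clec9a cells, which allows up to 10.7 CPM. In spleen all 5 libraries held it, from 176 to 284 CPM with a median of 207 CPM and 140 UMIs. Cd8a was thus at least 19.9-fold lower in kidney, counting 3 UMIs over the kidney cells as the limit (edgeR adjusted p = 2.70e-07), and the call held in all 4 other settings. The other kidney CD45+ cells, which include CD8+ T cells, had Cd8a at 136 and 92.1 CPM. The other 3 tested T cell markers were lower in kidney as well, Cd8b1 and Cd4 with no UMI there and Il7r with 4, and the spleen set held 307 to 836 CPM of the 9 T cell markers in sum against 0 and 17.0 CPM in kidney. Without the Siglech cells these 3 were too low to be tested. The part of T cell transcripts in the Cd8a of the spleen cells was not tested.

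**Figure D4:**
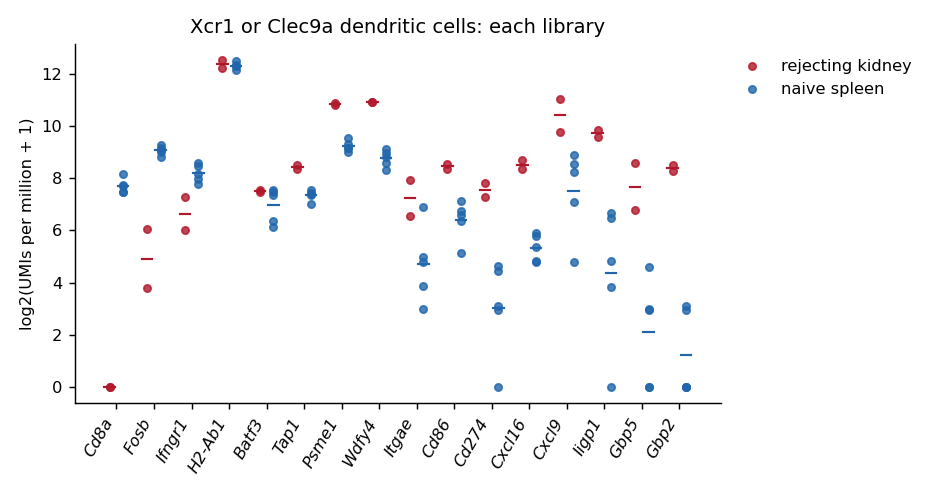
Level of 16 genes in the Xcr1 or Clec9a cells, as log2(CPM + 1) on the y axis, in each of the 2 rejecting kidney libraries (red) and 5 naive spleen libraries (blue), with the mean as a bar. Cd8a is at 0 in both kidney libraries and at 176 to 284 CPM in spleen, H2-Ab1 overlaps between the tissues, and Gbp2 is at 305 and 365 CPM in kidney and at most 7.67 CPM in spleen.

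Of 12 tested transcription factors of dendritic cells, 4 were higher and 4 lower in kidney, against 23.6% and 10.4% over all genes tested. The lower ones were Tcf4, the factor of plasmacytoid cells, Klf4, Mycl, and Irf8, by 2.57, 2.65, 1.59, and 0.66 on the log2 scale, and none of these 4 calls held in all 4 other settings. Rbpj, the nuclear partner of Notch, was higher by 2.23 and Id2 and Runx3 by 0.92 and 0.97, of which Rbpj held in all 4. Etv6, a repressor of the ETS family, was at 1199 and 1375 CPM in kidney against 47.9 to 130 CPM, median 80.1 CPM, in spleen (log2 fold change 3.99 ± 0.27, edgeR adjusted p = 7.03e-11). It has 228476 bases of intron, and its adjusted log2 fold change was 2.72, at which it still passed, as it did in the other 3 settings. Of 10 tested glycolysis and hypoxia genes 8 were higher and none lower, against 23.6% and 10.4% over all genes tested. Tpi1, Aldoa, Pkm, and Gapdh, all enzymes of glycolysis, were higher by 3.00, 2.08, 1.82, and 1.33 on the log2 scale and held in all 4 other settings. Of 11 immediate early and heat shock genes none was higher and 7 were lower, against the same shares over all genes. Fosb was at 65.4 and 12.7 CPM in kidney against 449 to 609 CPM, median 541 CPM, in spleen (log2 fold change -4.52 ± 0.46, edgeR adjusted p = 3.97e-08), and Fos and Jun were lower by 2.51 and 2.05. Such genes respond to tissue handling, and kidney and spleen were handled differently, so handling and tissue cannot be told apart. Top2a and Mki67, cell cycle genes, were higher by 3.56 and 2.37 but did not pass with DESeq2 (adjusted p = 0.408 and 0.384).

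**Figure D5:**
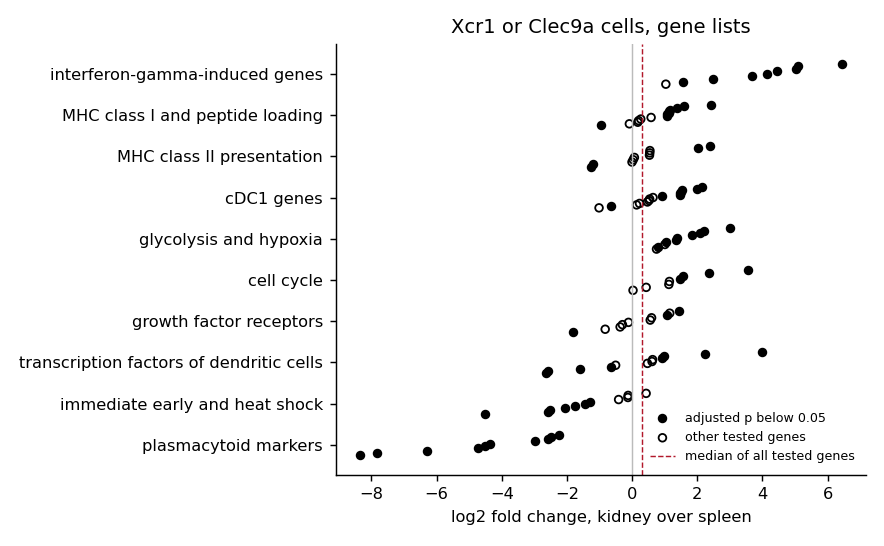
Log2 fold change, rejecting kidney over naive spleen, of each tested gene of 10 lists in the Xcr1 or Clec9a cells, with filled points for edgeR adjusted p below 0.05 and a dashed line at the median of all tested genes, 0.31. The interferon-gamma genes lie at the right, with a median of 4.14, and the plasmacytoid markers at the left.

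All 10 plasmacytoid markers were lower in the kidney Xcr1 or Clec9a cells than in those of the spleen, against 10.4% lower over all genes tested. Cox6a2 and Klk1, with no UMI in these kidney cells, could enter the test only through the spleen libraries. The count depends on which genes entered and is a description. All 10 markers were too low to be tested once cells with a Siglech UMI were left out. Their summed level was 720 and 340 CPM in kidney against 2231 to 6246 CPM in spleen. The spleen set thus held cells with plasmacytoid transcripts that the kidney set mostly did not.

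By rule, the 12 highest and the 12 lowest fold changes were also taken, from 650 higher and 172 lower genes with at least 100 CPM and no overlap between the libraries. Lrmda led the higher genes, at 283 and 391 CPM in kidney and 0 in all 5 spleen libraries, at least 81.9-fold higher. Cmss1 followed with 1199 and 1694 CPM against 0 to 20.3 CPM (log2 fold change 6.83). Both were higher in the other kidney CD45+ cells, at 1163 and 966 CPM for Lrmda and 2574 and 2123 CPM for Cmss1. Spon1, Lysmd4, Lrrc4, Gbp2, Hist1h3c, Gbp2b, Gab2, Tg, Tbxas1, and Tpm3-rs7 made up the rest. Lrmda has 1033660 bases of intron, Cmss1 302868, Spon1 266991, Gab2 221193, Tbxas1 200088, and Lrrc4 165921, all in the range where the kidney values were shifted upward. After the intron adjustment the log2 fold changes of Cmss1, Lrrc4, Gab2, and Tbxas1 were 5.59, 5.63, 4.58, and 4.29, and those of all 6 still passed. Among the higher genes, Lysmd4 did not pass with DESeq2, and Lysmd4, Hist1h3c, Gbp2b, Tg, and Tpm3-rs7 were too low to be tested without the Siglech cells. Apol7c, an apolipoprotein L gene that cDC1 use in cross-presentation, led the lower genes, with no UMI in kidney against 108 to 905 CPM, median 349 CPM, in spleen, at least 41.7-fold lower. Cd81, a tetraspanin, had no UMI either, against 130 to 233 CPM in spleen, at least 15.9-fold lower. Apol7c, Cd81, and Cd8a also passed without the Siglech cells. The others were Cox6a2, Klk1, Smim5, Cd7, Cd209d, Cacna1e, Trim12a, Cmah, and Sema4b, which had no UMI in these kidney cells and were too low to be tested without the Siglech cells.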

How the data were processed

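CD45+ cells of rejecting kidney (2 libraries of 13437087 and 19552578 UMIs, 11948 cells) and naive spleen (5 libraries of 30054753 to 37016197 UMIs, 47060 cells) were used, with library taken from the barcode tag and group from the labels. The authors mapped reads with Cell Ranger (version not given in the sources used here) to mm10 and removed cells by their number of UMIs, mitochondrial share, and genes found. They deposited raw UMI counts per gene and cell without normalization. Counts cover 32285 genes in kidney and 17644 in spleen, all of them shared, so the 2 may differ in filtering or counting. Kidney minus spleen differences increased with intron length, which is why an adjustment for it was made. Comparisons used the shared genes, which hold 99.6% of the kidney dendritic cell UMIs.

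The members and the gene lists were chosen with earlier results of these data known. UMIs were summed over member cells per library, scaled by plain library totals to CPM, filtered by filterByExpr, and tested by edgeR 4.0.16 (R 4.3.3) with its quasi-likelihood test and Benjamini-Hochberg adjustment at 0.05. A gene could pass this filter through the libraries of 1 tissue alone, so counts over lists depend on which genes entered. The main fit of a subset needed at least 10 cells per library and an added subset fit at least 5, while fits over all dendritic cells had no such limit. Without the Siglech cells, the Xcr1 or Clec9a fit had 7 cells in spleen libraries 1 and 3. In simulated data with 200 changed genes the test recovered 84% (all members) and 85.5% (Xcr1 or Clec9a cells) of 4-fold changes, but 4.5% and 6% of 2-fold changes. Of the calls at 4-fold, 7.69% and 2.84% were false. The changed genes had at least 100 CPM, all genes had the same spread between libraries, and no shift with intron length was put in, unlike in the real data. Shares have exact Clopper-Pearson 95% intervals, which cover counting error only, and two-sided exact permutation tests over libraries (scipy 1.17.1), of which those of the subset shares are not used. Cells were thinned to 1000 UMIs with a fixed seed. Ratios between cell sets of the kidney have counting intervals and no test. Clusters came from scanpy 1.11.5 and leidenalg 0.10.2, with 2000 variable genes, 30 components, 15 neighbors, and resolutions of 0.8 and 1.5. The genes of the criteria were left out of them. Scrublet called 3 of 11948 kidney cells doublets and so did not work there, and cells with the top 5% of scores were left out as an alternative instead.

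Named genes were those of the lists, the 12 largest and 12 smallest fold changes among genes with an adjusted p below 0.05, at least 100 CPM in the higher tissue, and no overlap of libraries, the 15 largest ratios to the other kidney cells, and the 10 largest per subset, all without mitochondrial, ribosomal, immunoglobulin, T cell receptor, and unnamed genes. Alternatives were TMM, DESeq2 1.42.0, no filter, each library left out, no C1q UMI, at least 3 marker genes, thinned criteria, and filters on cells. The intron-length adjustment of the Xcr1 or Clec9a fit, the sets without Siglech or with an Xcr1 UMI, and the doublet score limit were added after seeing the data. GENCODE release 21 gave coordinates and intron lengths and RefSeq the promoters, both on GRCm38. A tested gene of the interferon-gamma list is counted but not reported by name here.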

Additional observations from a re-analysis of the deposited data

Results flagged for a closer look

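Among 53 sets of 5 spleen libraries, the values of named genes were checked for a library far from the others by its gap over the whole range, with a limit of 0.71. Chance flags about 1 in 20 groups. Over all dendritic cells the ratio was 1 for Lrrc4, Gbp2b, Lysmd4, and Upp1, each found in 1 spleen library only, at 2.90, 3.39, 3.70, and 11.1 CPM. It was 0.793 for Cd209d, with a lowest library of 49.1 CPM and a median of 139 CPM, and 0.727 for Adam23, with a highest library of 332 CPM and a median of 203 CPM. In the Xcr1 or Clec9a cells it was 1 for Lrrc4, Gbp2b, and Tg, each in 1 library at 6.68, 6.84, and 6.77 CPM, and 0.816 for Cd209d, with a lowest library of 23.6 CPM and a median of 154 CPM. The kidney groups of 2 libraries are too small for this check. Outside these 53 sets, neutrophil markers in spleen library 1 summed to 4036 CPM over all dendritic cells and 7719 CPM in the Xcr1 or Clec9a cells. The highest other spleen library had 18.5 and 13.5 CPM. Without spleen library 1 the fits gave 1953 and 1180 calls.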

How the results depend on the processing

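The difference in the share of dendritic cells among CD45+ cells was 0.306 percentage points and ranged from -0.113 to 0.725 when 1 library was left out, turning negative without kidney library 2. Without that library, which holds 77 of the 95 cells, the calls over all dendritic cells fell to 466 (336 higher, 130 lower), with ranges up to 1953, 1421, and 532 over the libraries left out, and those of the Xcr1 or Clec9a cells to 367 (249 and 118), with ranges up to 1180, 820, and 360. Over all dendritic cells TMM gave 792 higher and 741 lower, DESeq2 912 calls (452 higher), the intron adjustment 789 higher, at least 3 marker genes 966 calls (675 and 291), and thinned criteria 552 (377 and 175). In the Xcr1 or Clec9a cells TMM gave 512 higher, DESeq2 569 calls (257 higher), no filter 1198 higher, the intron adjustment 469 higher, an Xcr1 UMI 463 calls (306 and 157), and no Siglech UMI 658 (467 and 191). Fewer cells entered the last 2 fits, and for the other changes the cause was not tested. The 12 highest and 12 lowest fold changes of each of the 2 fits gave 711 values under alternatives. Of these, 701 kept their direction and side of the threshold, 10 no longer passed, mostly without kidney library 2, and none reversed. These 48 were chosen as extremes, and the tally does not cover the other genes of the lists. In the Xcr1 or Clec9a fit, 163 of all 786 higher calls and 109 of all 345 lower calls passed in all 5 settings. Genes too low to be tested are not in this tally: without kidney library 2 this was so for 13 of 48 values, Lrmda and Spon1 among them, and without Siglech UMIs for 17. With an Xcr1 UMI, a fit of the Xcr1 or Clec9a cells only, 7 values were left. Thinned criteria, run over all dendritic cells only, left 16. The difference in dividing cells was 25.4 percentage points and 9.73 without thinning. The shares of the 3 subsets and of dividing cells kept their direction in every alternative run. No test of the subset shares is used, and that of dividing cells cannot pass 0.05. No paired analysis was possible because the groups share no replicate numbers in the labels. Fits for Cd209a and for Ccr7 or Fscn1 cells were not run, as a library had fewer than 10 such cells, and H2-Ea, in neither gene table used here, gave no value. In the simulated data, whose changed genes had at least 100 CPM, most 2-fold changes were missed, and such changes may have been missed here too.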

Other observations

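Over all dendritic cells, in which the subsets differ in size between the tissues, some genes of cDC2 and of mature cells were lower in the rejecting kidney and others higher. Of 10 tested cDC2 genes 4 were lower and 1 higher, and of 19 tested maturation and migration genes 5 were lower and 3 higher, against 9.28% lower and 23.4% higher over all genes tested. The median log2 fold change of the maturation list was -0.14. Within the Xcr1 or Clec9a cells the same list had 5 of 8 tested genes higher (Cd83, Cd86, Cd274, Traf1, and Birc3), none lower, and a median of 1.34, against 23.6% higher and 10.4% lower over all genes tested in that fit, though only Cd86 and Cd274 held in all 4 other settings. Cd274, low in the spleen cells, could enter that fit only through the kidney libraries. Of 6 cDC2 genes tested there, 3 were lower and 1 higher, and only the higher one, Notch2, held in all 4. Tmem176b, a membrane channel gene of cDC2, stood at 71.4 and 35.4 CPM in kidney against 209 to 340 CPM, median 305 CPM, in spleen (log2 fold change -2.80 ± 0.36, edgeR adjusted p = 2.80e-06). Il4i1 was at 53.6 and 32.1 CPM against 96.4 to 196 CPM, median 144 CPM (log2 fold change -1.97 ± 0.42, edgeR adjusted p = 0.00082). Within the kidney 9 of its 13 UMIs lay in the Ccr7 or Fscn1 cells. Ccl5 was at 0 and 180 CPM against 1243 to 2319 CPM, median 1320 CPM (log2 fold change -3.55 ± 0.39, edgeR adjusted p = 2.75e-07). Notch2, a receptor that cDC2 of the spleen need, went the other way, at 250 and 273 CPM against 52.1 to 81.2 CPM, median 67.5 CPM (log2 fold change 2.03 ± 0.27, edgeR adjusted p = 3.44e-06). Its difference was 0.90 on the log2 scale (edgeR adjusted p = 0.014) with the intron adjustment, and in the other CD45+ cells Notch2 was also 4.50-fold higher in kidney than in spleen. The kidney libraries lay outside the spleen range for each of these 4 genes. A different mix of subsets and a different level per cell cannot be told apart in the sums over all dendritic cells.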
